A study of Rattus norvegicus with 54 samples.

Results

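The gubernaculum of the left side was compared between LE/orl and LE/wt male rat fetuses at gestational day (GD) 18. LE/orl is a strain in which undescended testis (cryptorchidism) is inherited, and LE/wt is the wild-type strain it is set against. The comparison rests on 8 of the 54 one-colour Affymetrix arrays of the series: 4 arrays of LE/orl, with replicates A to D, and 4 arrays of LE/wt, with replicates A to D. Each array held RNA from the single left gubernaculum of 1 male fetus, and the labels give no treatment. Tissue was dissected from fetuses kept in RNAlater, and 30 ng of total RNA was amplified over a pair of cycles before labelling. Litters are not given, so littermates among the fetuses cannot be told apart from unrelated ones. The labels name no mutated gene in LE/orl, so the strains may differ at any number of loci, and the contrast is one of strain rather than of 1 allele. The other gubernaculum arrays of the series, 34 in all with these 8, served to estimate the spread between replicates. Of these, the left gubernacula of LE/orl and LE/wt males at GD19 and GD20 and the gubernacula of LE/wt females at GD18 (4 arrays a group) are also described. Genes are named only where the authors' deposited lists give a probe set 1 symbol, and the authors selected those lists on these arrays. A direction shared by named genes is therefore not independent evidence of that direction.

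The gubernaculum is a cord of mesenchyme with a rim of developing striated muscle (the future cremaster) that joins the fetal testis to the inguinal wall. In the rat it swells before birth under the hormone Insl3 from Leydig cells and later everts and migrates under androgen, and its growth, muscle differentiation and matrix turnover are all thought to bear on descent. Skeletal muscle forms when myogenic factors such as Myog and Mef2c switch on contractile, calcium-handling and energy genes, while Id proteins hold myogenic factors in check. Wnt, Bmp, Notch and Fgf signals pattern mesenchyme and muscle in many parts of the embryo.

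All values are log2 expression values as the authors deposited them, so a difference of 1 is a 2-fold change, and differences are LE/orl minus LE/wt. A gene is called at an adjusted p under 0.05 in limma. The label of the tissue was set against markers. Of 12 tested skeletal muscle markers, embryonic myosin Myh3 averaged 13.45 in LE/orl and 12.70 in LE/wt, and skeletal actin Acta1 averaged 12.81 in LE/orl and 13.77 in LE/wt. Of 7 mesenchymal markers, collagen Col3a1 averaged 14.51 in LE/orl and 14.13 in LE/wt, and Pdgfra, a receptor of mesenchymal cells, 12.27 in LE/orl and 12.17 in LE/wt. Both strains therefore carried the muscle and mesenchyme markers that the label calls for. No cartilage marker was among the names. Of 3 steroid or testis genes, Fdx1, a mitochondrial ferredoxin found in many tissues, averaged 9.86 in LE/orl and 9.33 in LE/wt. The lipoprotein receptor Scarb1 averaged 4.11 in LE/orl and 5.26 in LE/wt and Tesc, a marker of the fetal testis, 4.29 in LE/orl and 3.16 in LE/wt, near or under the minimum log2 value of 5 used for testing.

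LE/orl replicate A stood apart from the other LE/orl arrays. The 5′ minus 3′ signal of the array's own controls, averaged over GAPDH and beta-actin, which falls when RNA or its copies are shorter, was -4.16 in LE/orl replicate A and -6.72, -6.70 and -6.80 in LE/orl replicates B to D, against -4.23, -3.73, -3.75 and -3.82 in LE/wt replicates A to D. LE/orl replicates B to D thus lay below every LE/wt array, and replicate A lay among them. Hexokinase, another of these controls, was left out of the average. Its 5′ minus 3′ signal was -0.04, 0.22, 0.10 and 0.22 in LE/orl replicates A to D. In LE/wt replicates A to D it was 0.20, 0.16, 0.16 and 0.22, so hexokinase did not set LE/orl replicates B to D below LE/wt. Across probe sets, replicate A correlated with the other LE/orl arrays at 0.966 to 0.968, replicates B to D with each other at 0.992 to 0.995, and LE/wt arrays with each other at 0.984 to 0.996. The authors left this array out of their own LE/orl mean: the authors' deposited table was matched to within 0.51 of its linear intensity without replicate A for 3589 of 3589 probe sets, and with it for 38. Results are therefore given with all arrays and without replicate A. Among the other LE/orl arrays the averaged control signal of GAPDH and beta-actin cannot be told apart from strain. A further fit therefore took it as a covariate, which separates strain from the control signal mainly through replicate A at GD18 and 1 LE/orl array of GD19, and the main gene groups are given with their counts in that fit and as the median of replicate A minus the LE/wt mean beside that of replicates B to D.

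**Figure D1:**
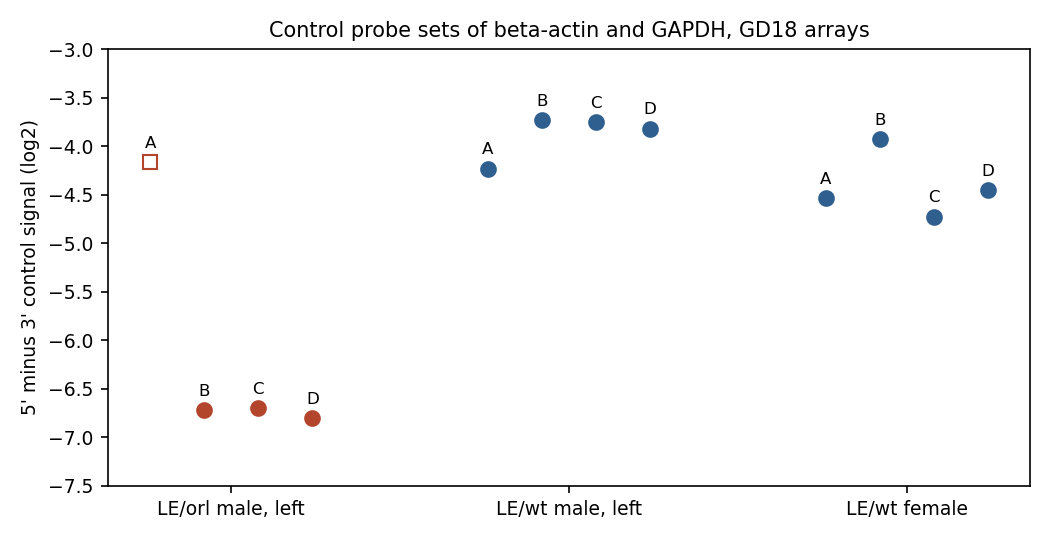
The vertical axis is the 5′ minus 3′ control signal (log2, mean of beta-actin and GAPDH) of each GD18 array, in LE/orl males, LE/wt males and LE/wt females, with replicate letters beside the points. LE/orl replicate A (open square) lies at -4.16, near the LE/wt males, while LE/orl replicates B to D lie between -6.80 and -6.70.

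Over all 8711 features tested, 4428 were called (50.8%), of which 2333 were higher in LE/orl (26.8%) and 2095 lower (24.1%). Without replicate A, 4799 were called (55.1%), with 2507 higher (28.8%) and 2292 lower (26.3%). Among the 2818 named genes tested, 2152 were called (76.4%), 955 of them higher (33.9%) and 1197 lower (42.5%), and without replicate A 2238 (79.4%), with 972 higher (34.5%) and 1266 lower (44.9%). With the control signal as a covariate 2635 features were called (30.2%), 1500 higher (17.2%) and 1135 lower (13.0%), and 684 named genes were higher (24.3%) and 656 lower (23.3%). The counts of each gene list are to be read against these shares. A call that was also at least 2-fold was made for 2323 features (26.7%). The fits with and without replicate A shared calls in the same direction for 4182 features, 246 were made only with all arrays, 617 only without replicate A, and 0 in opposite directions. The 4 LE/orl and the 4 LE/wt values did not overlap for 760 named genes that were higher in LE/orl (27.0%) and 928 that were lower (32.9%). Over LE/orl replicates B to D alone, 2350 named genes lay apart from LE/wt (83.4%). In 1688 of these 2350, replicate A lay beyond LE/wt on the same side, in 375 within LE/wt and in 287 beyond it on the other side.

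The 10 named genes with the highest differences, among those called with and without replicate A, with groups that did not overlap and means of at least 5, belonged to no single pathway. Nus1, part of the prenyltransferase behind the dolichol carrier of protein glycosylation, measured 9.98, 9.91, 9.97 and 9.68 in LE/orl replicates A to D, against 5.47, 6.42, 5.96 and 6.04 in LE/wt replicates A to D. Its LE/orl arrays lay close together, replicate A included, at a difference of 3.91 (SE 0.21, adjusted p = 8.88e-14 in limma). Rnf111, the ubiquitin ligase Arkadia that enhances Tgf-beta signalling, measured 8.72, 8.70, 9.02 and 7.98 in LE/orl and 4.51, 5.46, 5.34 and 5.33 in LE/wt, a difference of 3.45 (SE 0.37, adjusted p = 1.99e-08). Eef2k, the kinase that slows translation by phosphorylating elongation factor 2, measured 6.45, 10.21, 10.20 and 9.63 in LE/orl and 5.75, 5.57, 5.69 and 5.72 in LE/wt. Here replicate A lay far below replicates B to D but still above LE/wt, and the difference was 3.44 with all arrays and 4.33 without replicate A. Kctd3 measured 8.17, 9.42, 9.31 and 9.23 in LE/orl and 5.40, 5.59, 5.60 and 6.01 in LE/wt, a difference of 3.39 (SE 0.29, adjusted p = 7.34e-10), again with replicate A the LE/orl array nearest to LE/wt. Riboflavin kinase Rfk (difference 3.36), the solute carrier Slc35f5 (3.20), Fbxw11 (2.95), an adaptor for degradation of beta-catenin, and the sialyltransferase St6gal1 (2.95) also stood among the highest 10, as did Nek1, which is described with the genes that moved most without replicate A.

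The 10 lowest by the same rule held several genes of translation and mitochondria. Lgals1, the secreted lectin galectin-1, measured 12.19, 8.84, 8.89 and 8.83 in LE/orl replicates A to D, against 13.19, 13.75, 13.59 and 13.28 in LE/wt. Replicate A lay much nearer to LE/wt than to replicates B to D, and the difference was -3.77 (SE 0.54, adjusted p = 2.36e-06) with all arrays and -4.60 without replicate A. Polr2f, a subunit shared by the RNA polymerases, measured 7.60, 4.90, 5.42 and 4.88 in LE/orl and 9.34, 9.31, 9.78 and 9.35 in LE/wt, a difference of -3.75 (SE 0.40, adjusted p = 1.73e-08). Eif3k, a subunit of a translation initiation factor, measured 9.76, 7.62, 7.77 and 8.52 in LE/orl and 11.93, 12.23, 11.99 and 11.78 in LE/wt, a difference of -3.57 (SE 0.38, adjusted p = 2.07e-08). In all 3 genes the LE/orl array nearest to LE/wt was replicate A. The other 7 lowest were Ppdpf (-4.02), the mitochondrial ribosomal protein Mrpl42 (-3.74), the mitochondrial import chaperone Timm13 (-3.69), the neuronal deubiquitinase Uchl1 (-3.65), LOC681219 (-3.58), the glutathione transferase Mgst3 (-3.52) and the cytokine Mif (-3.51). For each of these 10 genes the difference was larger without replicate A, and it moved by between -0.43 for Mif and -0.97 for LOC681219.

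**Figure D2:**
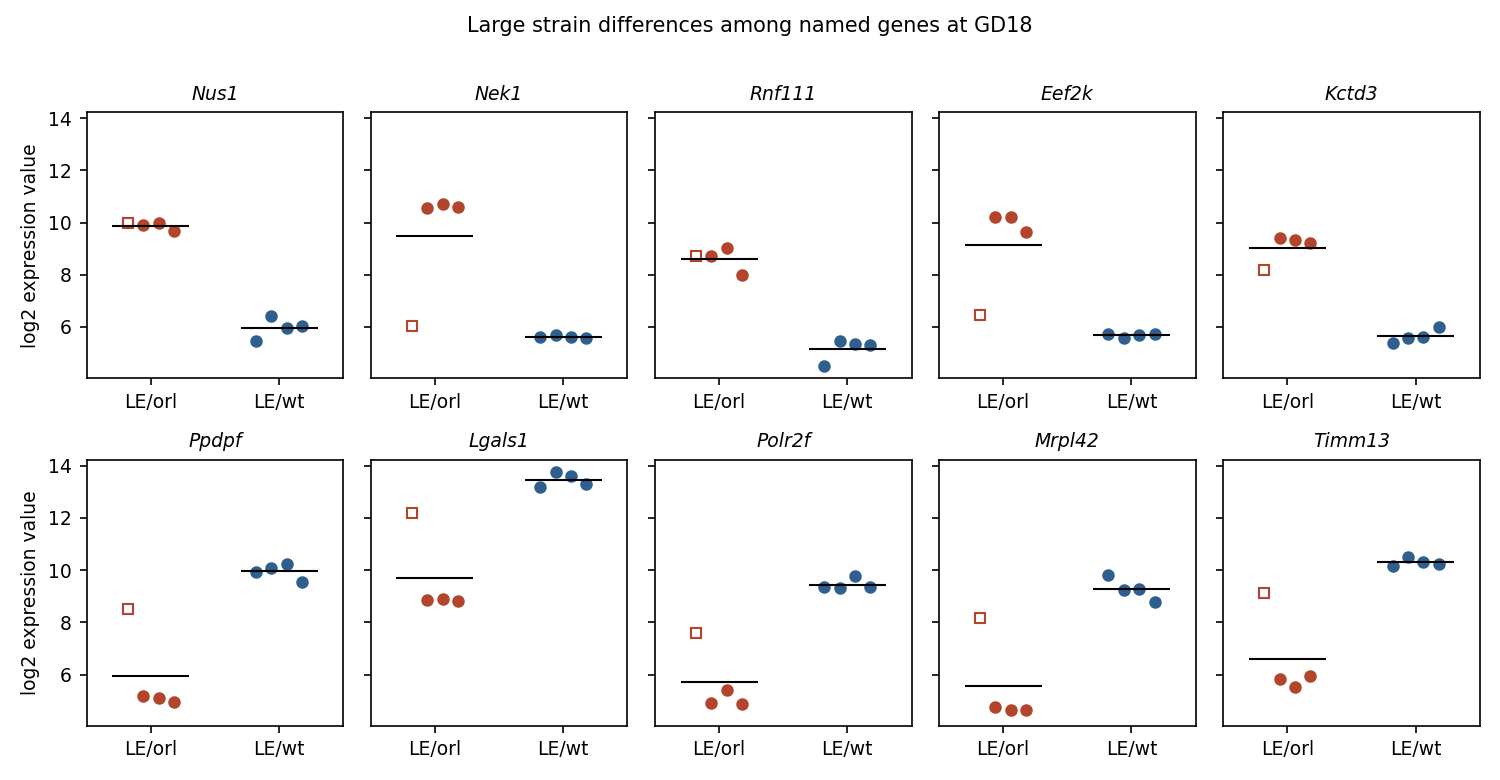
Each panel gives log2 expression values of 1 gene on the 4 LE/orl arrays (left; open square, replicate A) and the 4 LE/wt arrays (right) with the group mean as a bar. In the 5 higher genes of the upper row and the 5 lower genes of the lower row no LE/orl value reaches the LE/wt values, which was a condition of their choice. Replicate A is the LE/orl value nearest to LE/wt in Nek1, Eef2k, Kctd3 and all 5 genes of the lower row.

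Contractile genes of striated muscle were lower in LE/orl in part. Of 12 thin filament genes, 8 were lower (66.7%) and 0 higher, beside 42.5% lower and 33.9% higher among all named genes. With the control signal as a covariate, 2 thin filament genes were lower and 1 higher. Of 7 thick filament genes, 3 were lower (42.9%) and 1 higher, and 3 were lower and 0 higher with the covariate. Myl11, the regulatory light chain of fast myosin, measured 11.89, 9.73, 9.67 and 10.05 in LE/orl replicates A to D, against 12.72, 13.21, 13.21 and 13.12 in LE/wt. All LE/orl arrays lay below LE/wt, replicate A the least, and the difference was -2.73 (SE 0.37, adjusted p = 9.78e-07). Myl3, a light chain of slow myosin, measured 7.51, 6.79, 6.59 and 6.20 in LE/orl and 8.41, 9.43, 8.69 and 8.75 in LE/wt, and Mybph, a myosin-binding protein, 8.29, 8.89, 8.45 and 8.63 in LE/orl and 9.53, 9.82, 10.01 and 9.77 in LE/wt. Neither gene had overlapping groups, and Myl3 was lower by 2.05 (adjusted p = 9.54e-05) and Mybph by 1.22 (adjusted p = 0.00141). Cardiac actin Actc1, which fetal skeletal muscle also makes, differed by -0.98, skeletal actin Acta1 by -0.97 and the thin filament cap Tmod1 by -0.94, and none of these 3 genes had overlapping groups. The 1 thick filament gene that was higher was embryonic myosin Myh3, with 13.19, 13.49, 13.67 and 13.46 in LE/orl and 11.92, 12.94, 12.78 and 13.16 in LE/wt, a difference of 0.75 (adjusted p = 0.0109). Myh3 lies outside the naming rule and is given because it ran against its list. The median over the thin filament list was -0.47 for replicate A and -0.94 for replicates B to D. Over all named genes it was -0.02 and -0.30.

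Of 13 Z-disc, M-band and titin genes, 5 were lower (38.5%, below the 42.5% of all named genes) and 2 higher, and 2 were lower and 1 higher with the covariate. Myoz2, a Z-disc protein that binds calcineurin, measured 8.35, 8.86, 8.55 and 8.87 in LE/orl and 10.00, 10.73, 10.11 and 10.07 in LE/wt, a difference of -1.57 (SE 0.32, adjusted p = 0.00016). Replicate A was the lowest of the LE/orl arrays here. The Lim-domain protein Fhl3 differed by -1.72 and desmin Des, the muscle intermediate filament, by -1.49. Filamin C Flnc, which crosslinks actin at the Z-disc, was higher, with 11.12, 11.69, 11.83 and 11.47 in LE/orl and 9.99, 10.45, 10.48 and 10.77 in LE/wt, a difference of 1.1 (SE 0.23, adjusted p = 0.000201). Titin Ttn was higher too, at 1.28, and is named because only these 2 genes of the list were higher.

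In the 8 calcium-handling genes, 1 was lower and 2 were higher, and 1 was lower and 0 higher with the covariate, so neither direction exceeded its share among named genes. Sln, sarcolipin, which inhibits the calcium pump of the sarcoplasmic reticulum, measured 6.81, 6.93, 6.03 and 6.74 in LE/orl and 9.5, 9.87, 8.85 and 8.89 in LE/wt. The strains were far apart with replicate A inside the LE/orl range, and the difference was -2.65 (SE 0.39, adjusted p = 2.77e-06). Atp2a2, a calcium pump of slow and cardiac muscle and of other cells, measured 10.49, 11.79, 11.58 and 11.50 in LE/orl and 9.78, 10.49, 9.85 and 10.08 in LE/wt, a difference of 1.29 (SE 0.25, adjusted p = 8.46e-05), with replicate A level with the highest LE/wt array to 2 decimals. The calcium release channel Ryr1 was higher by 1.09 (adjusted p = 0.0162) with overlapping groups. The call of Ryr1 at GD18 was lost without LE/orl replicate C (0.81) or LE/wt replicate A (0.89). In the energy genes of muscle, 9 of 12 were lower and 0 higher, beside 42.5% and 33.9% of all named genes, and 5 were lower with the covariate. Cox6a2, the muscle form of a cytochrome oxidase subunit, measured 6.24, 6.84, 5.49 and 6.40 in LE/orl and 8.26, 8.77, 8.60 and 8.07 in LE/wt, a difference of -2.18 with all arrays (SE 0.35, adjusted p = 9.08e-06) and -2.18 without replicate A. Muscle enolase Eno3 measured 9.53, 9.19, 8.57 and 9.00 in LE/orl and 10.49, 11.06, 10.95 and 10.87 in LE/wt, a difference of -1.77 (SE 0.30, adjusted p = 1.8e-05), and the muscle ADP-ribosyltransferase Art1 differed by -1.64. The list median was -0.51 for replicate A and -1.54 for replicates B to D. In a bulk sample, fewer muscle cells and less RNA of these genes per cell cannot be told apart.

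**Figure D3:**
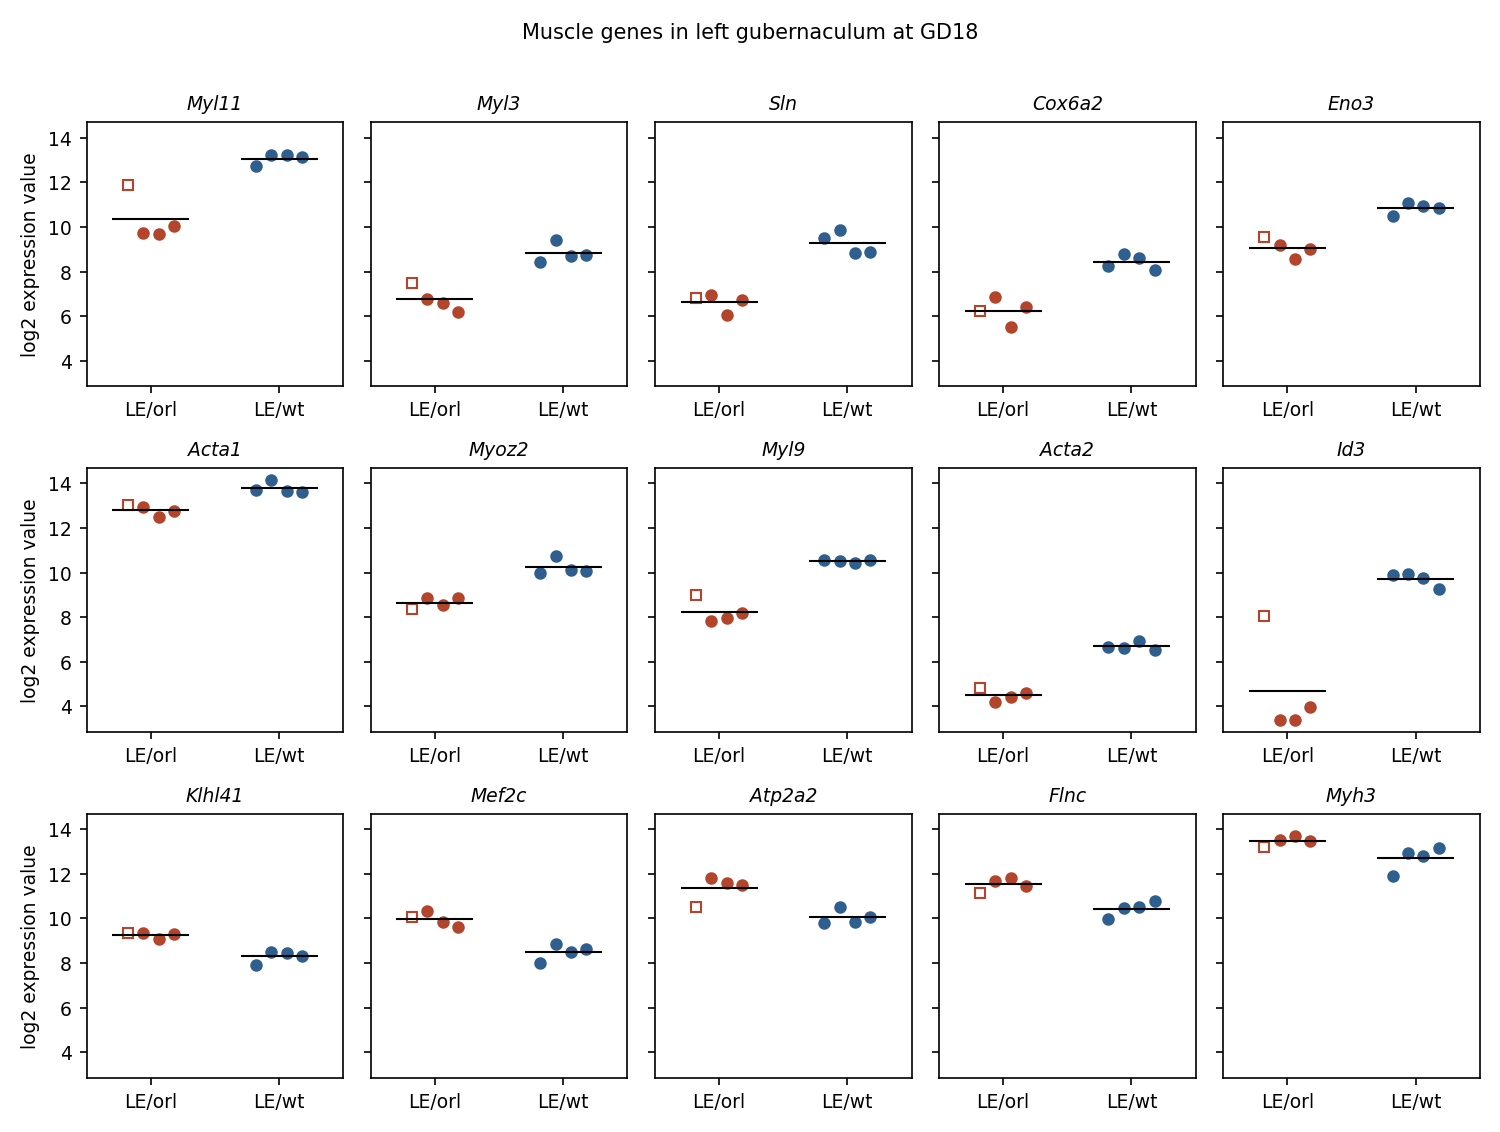
Each panel gives log2 expression values of 1 muscle gene on the 4 LE/orl arrays (left; open square, replicate A) and the 4 LE/wt arrays (right) with the group mean as a bar. The LE/orl values lie below LE/wt in the first 10 genes, Myl11 to Id3, and the LE/orl mean lies above LE/wt in the last 5, Klhl41 to Myh3, where replicate A of Atp2a2 is level with the highest LE/wt value. Klhl41, Mef2c and Myh3 were added outside the naming rule.

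The list of myogenic regulators was mixed, with 3 of 9 higher and 4 lower, close to the shares among all named genes. Not all its members are transcription regulators, and Des, counted above with the Z-disc genes, is 1 of the 4 lower ones. Mef2c, the partner of the myogenic factors, measured 10.05, 10.31, 9.85 and 9.60 in LE/orl and 8.00, 8.87, 8.47 and 8.61 in LE/wt, and it was higher by 1.47 (SE 0.25, adjusted p = 2.54e-05). Klhl41, a Kelch protein of muscle, measured 9.34, 9.34, 9.08 and 9.28 in LE/orl and 7.92, 8.47, 8.47 and 8.32 in LE/wt, and it was higher by 0.96 (SE 0.19, adjusted p = 0.000146). In both genes every LE/orl array exceeded every LE/wt array, and both lie outside the naming rule and were chosen after their values were seen. Id3, which sequesters myogenic factors, measured 8.07, 3.40, 3.39 and 3.96 in LE/orl and 9.89, 9.93, 9.76 and 9.25 in LE/wt. Replicates B to D lay near the lower end of the scale, under the minimum of 5, while replicate A lay nearer to LE/wt, below all its arrays. The difference was -5.0 (SE 0.75, adjusted p = 4.29e-06) with all arrays and -6.12 without replicate A. Id1 measured 9.51, 8.48, 8.57 and 8.52 in LE/orl and 10.32, 10.51, 10.06 and 10.04 in LE/wt, a difference of -1.46 (SE 0.25, adjusted p = 2.15e-05). Myogenin Myog, named because it is the defining factor of this list, differed by -0.30 (adjusted p = 0.389) and did not pass the test.

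Promoters were read because myogenic factors bind the E-box CAGCTG and because the muscle energy and light chain genes moved together. The windows are the 250 bases before the RefSeq start of each gene in assembly GRCr8, 1 window per gene, and both strands were searched. CAGCTG was found in 17 of 52 windows of the 6 striated muscle lists (32.7%), with 8 of the 60 members unmatched, and in 3274 of all 27457 windows (11.9%). By call at GD18, 9 of 24 lower members held it, 1 of 6 higher members and 7 of 22 members that were not called. For comparison, the core CTTCCG bound by Ets factors was found in 24 of 40 windows of the respiratory list, 26 of 50 of the ribosome list, 15 of 38 of the proteasome list (39.5%) and 14.7% of all windows. In the respiratory list 18 of 34 lower, 3 of 3 higher and 3 of 3 uncalled members held CTTCCG, in the ribosome list 20 of 43 lower, 3 of 4 higher and 3 of 3 uncalled members, and in the proteasome list 11 of 27 lower, 2 of 5 higher and 2 of 6 uncalled members. In the respiratory and ribosome lists its share was smaller among lower members than among the few others, and in the proteasome list it was not. These shares were not tested. Another 6 motifs were counted and not used further, namely CANNTG (65.2% of all windows), CTAAAAATA (0.463%), the CArG box (1.5%), TTCCGG (13.4%), GGAAGTG (8.45%) and CCCGCCC (22.5%), and those with TTCC or GGAA overlap CTTCCG. A match is a stretch of letters and not a binding site. The windows shown are those of Myl11 (chr1:191260039-191260288, plus strand), Cox6a2 (chr1:192219717-192219966, minus strand) and the smooth muscle actin Acta2 (chr1:241172504-241172753, minus strand), all lower in LE/orl, with CAGCTG in capitals. They are followed by the ribosomal gene Rpl29 (chr8:115947393-115947642, plus strand) and the proteasome gene Psmb3 (chr10:83193537-83193786, plus strand), also lower, with CTTCCG in capitals. The capitals begin 155, 107, 232, 54 and 163 bases before the start in this order.
Myl11: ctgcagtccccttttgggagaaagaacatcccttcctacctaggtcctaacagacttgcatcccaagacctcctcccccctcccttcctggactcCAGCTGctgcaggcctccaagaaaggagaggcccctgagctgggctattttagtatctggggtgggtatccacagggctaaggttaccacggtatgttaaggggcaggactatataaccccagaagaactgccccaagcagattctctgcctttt
Cox6a2: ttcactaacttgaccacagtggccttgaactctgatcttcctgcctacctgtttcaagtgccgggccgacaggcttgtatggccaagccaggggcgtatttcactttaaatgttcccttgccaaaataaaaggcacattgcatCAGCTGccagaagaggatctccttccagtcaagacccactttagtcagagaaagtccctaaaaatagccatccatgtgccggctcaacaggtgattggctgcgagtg
Acta2: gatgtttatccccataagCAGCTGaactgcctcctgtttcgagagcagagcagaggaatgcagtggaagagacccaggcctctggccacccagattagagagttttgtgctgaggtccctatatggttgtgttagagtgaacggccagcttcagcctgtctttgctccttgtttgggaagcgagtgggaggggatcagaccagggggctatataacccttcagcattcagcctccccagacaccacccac
Rpl29: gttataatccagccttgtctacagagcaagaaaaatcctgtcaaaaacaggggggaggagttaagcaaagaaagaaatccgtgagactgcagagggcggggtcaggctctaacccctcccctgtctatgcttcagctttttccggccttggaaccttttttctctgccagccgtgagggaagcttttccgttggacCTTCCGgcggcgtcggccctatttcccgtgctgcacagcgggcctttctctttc
Psmb3: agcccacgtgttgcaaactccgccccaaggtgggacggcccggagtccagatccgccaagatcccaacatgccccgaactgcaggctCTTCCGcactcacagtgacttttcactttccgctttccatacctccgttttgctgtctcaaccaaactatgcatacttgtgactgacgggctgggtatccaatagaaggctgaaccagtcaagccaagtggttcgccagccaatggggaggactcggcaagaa

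All 7 tested genes of the smooth muscle list were lower, with and without replicate A, beside 42.5% of all named genes with all arrays. With the covariate 4 of them were lower (57.1%, beside 23.3%). The list also holds vimentin and desmin, and desmin is counted with the Z-disc genes too. Acta2, smooth muscle actin, measured 4.81, 4.20, 4.43 and 4.60 in LE/orl replicates A to D, against 6.68, 6.63, 6.95 and 6.55 in LE/wt, a difference of -2.19 (SE 0.24, adjusted p = 3.67e-08). Its LE/orl values lay under the minimum of 5, so the size of the difference is uncertain. Myl9, the regulatory light chain of smooth muscle myosin, measured 8.98, 7.83, 7.99 and 8.18 in LE/orl and 10.58, 10.50, 10.45 and 10.57 in LE/wt, a difference of -2.28 (SE 0.28, adjusted p = 2.26e-07). Vimentin Vim, an intermediate filament of mesenchyme, differed by -0.86 (SE 0.14, adjusted p = 1.88e-05). The list median was -1.14 for replicate A and -1.61 for replicates B to D, on the same side of 0. Of 30 genes of the actin cytoskeleton and septins, 12 were lower (40%) and 8 higher (26.7%), neither above its share among named genes. Arpc4, a subunit of the Arp2/3 complex that branches actin, measured 6.80, 6.42, 6.97 and 5.71 in LE/orl and 9.63, 9.09, 8.96 and 9.11 in LE/wt, a difference of -2.72 (SE 0.36, adjusted p = 6.85e-07). Cofilin Cfl1, which severs actin filaments, differed by -1.92 with all arrays and -2.30 without replicate A, and the GTPase Rac1 by -1.56 and -1.87. The list median was 0.17 for replicate A and -0.39 for replicates B to D, on opposite sides of 0.

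Among genes of hormone response and patterning, 3 of 7 were lower (42.9%, beside 42.5% of all named genes) and 1 higher. Cited1, a coactivator that binds the CBP/p300 proteins, measured 6.24, 5.07, 4.52 and 5.94 in LE/orl and 8.54, 8.16, 8.42 and 7.96 in LE/wt. The groups did not overlap, and the difference was -2.83 (SE 0.37, adjusted p = 5.72e-07). Ramp1, which turns the calcitonin-receptor-like receptor into a receptor for the neuropeptide Cgrp, measured 6.26, 6.43, 5.56 and 5.62 in LE/orl and 7.84, 7.75, 7.71 and 7.47 in LE/wt, a difference of -1.72 (SE 0.33, adjusted p = 0.000102). Its relative Ramp2, which serves the adrenomedullin receptor, measured 10.01, 7.91, 8.03 and 8.14 in LE/orl and 9.48, 9.78, 9.99 and 9.90 in LE/wt. Replicate A exceeded all LE/wt arrays while replicates B to D lay below them, so Ramp2, called at -1.27 (adjusted p = 0.00586), had overlapping groups. The 1 gene of this list that was higher was the nuclear receptor Nr2f2 (0.93), named to complete the count. Insl3, its receptor and the androgen and oestrogen receptors were not analysed here.

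Of 11 Wnt genes, 5 were higher in LE/orl (45.5%, beside 33.9% of all named genes) and 0 lower. Without replicate A 8 were higher and 1 lower, and with the control signal as a covariate 3 were higher and 2 lower. Sfrp2, a secreted protein that binds Wnts, measured 10.99, 11.03, 11.19 and 11.06 in LE/orl, against 7.97, 8.72, 8.20 and 8.55 in LE/wt. The 4 LE/orl arrays lay within a narrow range, replicate A included, and the difference was 2.71 (SE 0.24, adjusted p = 1.21e-09). Frzb, another secreted Wnt antagonist, measured 8.20, 9.63, 9.74 and 9.40 in LE/orl and 7.34, 7.46, 7.52 and 7.90 in LE/wt, a difference of 1.69 (SE 0.34, adjusted p = 0.000158), while a second probe set of Frzb with a lower mean was not called at 0.38. Axin1, the scaffold of the complex that degrades beta-catenin, differed by 1.22 (SE 0.16, adjusted p = 4.53e-07). These 3 members are known chiefly as inhibitors of the pathway. The list median was 0.33 for replicate A and 1.17 for replicates B to D.

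Of 12 genes of Bmp and Tgf-beta signalling, 5 were lower (41.7%) and 3 higher (25%), neither above its share among named genes. The ligand Bmp7 measured 6.82, 6.42, 6.37 and 6.78 in LE/orl and 8.30, 8.28, 8.51 and 8.31 in LE/wt, a difference of -1.75 (SE 0.18, adjusted p = 1.39e-08). Bambi, a pseudoreceptor that Bmp signals induce and that dampens them, measured 7.09, 7.15, 7.54 and 7.94 in LE/orl and 8.45, 9.06, 8.92 and 8.89 in LE/wt, a difference of -1.40 (SE 0.21, adjusted p = 4.12e-06). Of 4 Notch and hedgehog genes, 3 were higher (75%, beside 33.9% of all named genes) and 0 lower. With the covariate 1 was higher (25%, beside 24.3%). The receptor Notch2 measured 11.54, 12.41, 12.37 and 12.11 in LE/orl and 9.88, 10.67, 10.14 and 10.19 in LE/wt, a difference of 1.89 (SE 0.25, adjusted p = 6.06e-07). Notch1 was higher by 0.77 (adjusted p = 0.0217) and the ligand Jag1 by 1.67 (adjusted p = 0.0363), both with overlapping groups. Jag1 measured 6.98, 9.43, 9.43 and 8.58 in LE/orl and 6.95, 6.99, 6.45 and 7.37 in LE/wt, so replicate A lay within LE/wt. The call of Jag1 at GD18 was lost without any 1 of the other LE/orl arrays or without LE/wt replicate A, B or C, at differences of 1.39 to 1.68. Without LE/orl replicate B, LE/wt replicate A or LE/wt replicate C, the call of Notch1 at GD18 was lost, at 0.51 to 0.73.

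Of 20 genes of receptor kinase signalling and its feedback, 10 were higher (50%, beside 33.9% of all named genes) and 3 lower, and 6 were higher and 3 lower with the covariate. Spry1, an inhibitor that Fgf signalling induces, measured 7.78, 8.39, 8.06 and 8.31 in LE/orl and 5.94, 6.73, 6.30 and 5.92 in LE/wt, a difference of 1.91 (SE 0.18, adjusted p = 2.18e-09). The receptor phosphatase Ptprj measured 6.82, 8.22, 8.72 and 7.90 in LE/orl and 5.33, 4.22, 4.18 and 4.30 in LE/wt, a difference of 3.41 (SE 0.33, adjusted p = 4.28e-09). The receptor Egfr measured 3.43, 3.26, 2.91 and 2.89 in LE/orl and 5.25, 5.57, 4.58 and 5.34 in LE/wt, a difference of -2.07 (SE 0.26, adjusted p = 2.54e-07). Ptprj in LE/wt and Egfr in LE/orl averaged under 5, so both sizes are uncertain. Of 8 genes of the insulin-like growth factor system, 4 were lower (50%, beside 42.5%) and 2 higher (25%, beside 33.9%). With the covariate 2 were called each way (25% each, beside 23.3% lower and 24.3% higher), close to the shares of named genes. Igfbp5, a secreted binding protein of these factors, measured 5.09, 6.09, 6.30 and 6.26 in LE/orl and 9.93, 9.43, 8.83 and 9.33 in LE/wt. Replicate A was the lowest LE/orl array, and the difference was -3.45 (SE 0.42, adjusted p = 1.48e-07). Irs2, a substrate of the insulin and Igf1 receptors, was higher by 2.17, a size that is uncertain because LE/wt averaged 4.71, and the scavenging receptor Igf2r by 0.86.

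Matrix genes were called in both directions. Of 35 collagens, laminins and proteoglycans, 14 were higher (40%, beside 33.9% of all named genes) and 7 lower (20%, beside 42.5%). With the covariate 4 were higher and 4 lower (11.4% each, beside 24.3% and 23.3%), so this list was called less often than named genes in that fit. Col1a2, a chain of type I collagen, measured 14.18, 14.43, 14.53 and 14.59 in LE/orl and 13.00, 13.36, 13.41 and 13.34 in LE/wt, a difference of 1.15 (SE 0.13, adjusted p = 5.32e-08). For the other type I chain, Col1a1, which lies outside the naming rule, the probe sets disagreed. The one with the higher mean was not called (0.10, adjusted p = 0.827), and the second averaged 8.54 in LE/orl and 10.39 in LE/wt and was called lower at -1.85 (adjusted p = 0.0011). The laminin chain Lamb1 measured 10.56, 10.50, 10.48 and 10.61 in LE/orl and 8.98, 9.5, 9.46 and 9.68 in LE/wt, a difference of 1.14 (SE 0.21, adjusted p = 5.46e-05). The small proteoglycan decorin Dcn was lower by 0.69. Of 12 matrix proteases and inhibitors, 8 were lower (66.7%, beside 42.5%) and 3 higher (25%, beside 33.9%). With the covariate 6 were lower (50%, beside 23.3%) and 1 higher. Serpinf1, the antiangiogenic serpin Pedf, measured 10.52, 9.80, 9.95 and 10.27 in LE/orl and 12.10, 12.19, 12.42 and 12.05 in LE/wt, a difference of -2.06 (SE 0.25, adjusted p = 1.66e-07). Timp2, an inhibitor of metalloproteinases, measured 10.99, 10.03, 9.51 and 9.79 in LE/orl and 11.62, 12.03, 12.29 and 11.89 in LE/wt, a difference of -1.88 (SE 0.23, adjusted p = 1.91e-07), and the metalloproteinase Mmp23 differed by -1.69. In all 3 the LE/orl array nearest to LE/wt was replicate A, and none of them overlapped.

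Genes of respiration, translation and protein breakdown, which most cells use, were mostly lower in LE/orl. Of 48 subunits of the respiratory chain and ATP synthase, 41 were lower and 4 higher. Of 65 ribosomal proteins and translation factors, 55 were lower and 5 higher, and of 42 proteasome and ubiquitin genes 28 were lower and 6 higher. The share called lower among all named genes was 42.5%. Ndufa11, a subunit of complex I, measured 8.60, 7.99, 7.99 and 8.06 in LE/orl, against 11.15, 11.07, 10.73 and 10.29 in LE/wt, a difference of -2.65 (SE 0.19, adjusted p = 3.74e-11). Another subunit of complex I, Ndufs7, differed by -2.66, and Atp5mc1, which encodes the membrane ring of ATP synthase, by -2.87. Respiratory genes that were higher included Cox5a (1.01), Ndufs1 (0.91) and Atp5f1b (0.53), which lie outside the naming rule and were chosen after their values were seen. Eif4ebp1, which holds back cap-dependent translation, measured 6.07, 5.65, 5.53 and 6.19 in LE/orl and 8.32, 8.47, 8.72 and 8.23 in LE/wt, a difference of -2.57 (SE 0.20, adjusted p = 1.74e-10). The ribosomal proteins Rpl29 and Rpl35a differed by -2.55 and -1.77. Of the 5 translation genes that were higher, 4 are initiation factors of the Eif4a and Eif4g families, Eif4a1 (1.52), Eif4g1 (1.21), Eif4a2 (0.96) and Eif4g2 (0.53), and the last is Rpl30 (0.69). They are named to complete the count. Psmb3, a subunit of the proteasome core, measured 9.11, 7.99, 7.62 and 8.09 in LE/orl and 11.44, 11.01, 11.22 and 11.08 in LE/wt, a difference of -2.99 (SE 0.29, adjusted p = 4.54e-09). Ube2n, a ubiquitin-conjugating enzyme, differed by -2.07.

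In these lists replicate A lay nearer to LE/wt than replicates B to D did. The ribosome list had a median of -0.28 in replicate A minus the LE/wt mean, and of -1.61 in replicates B to D. The respiratory list had -0.71 and -1.81, and the proteasome list -0.19 and -1.30. Replicate A lay below all 4 LE/wt arrays for 43 of 65 ribosome genes, 33 of 48 respiratory genes and 21 of 42 proteasome genes. With the 5′ to 3′ control signal as a covariate, 16 ribosome genes (24.6%), 25 respiratory genes (52.1%) and 13 proteasome genes (31%) were called lower. The share among all named genes in that fit was 23.3%, so the ribosome list stood close to it. In the same fit 6 ribosome, 5 respiratory and 5 proteasome genes were called higher.

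Selenoproteins and redox enzymes were lower throughout: 16 of 16 were called lower, with and without replicate A. Selenow, a small selenoprotein of muscle, measured 6.37, 3.07, 2.88 and 3.09 in LE/orl and 7.88, 8.47, 8.89 and 8.41 in LE/wt, a difference of -4.56 (SE 0.53, adjusted p = 8.3e-08), with LE/orl under the minimum of 5 on average. The glutathione transferase Gstm5 measured 9.13, 7.35, 6.24 and 6.76 in LE/orl and 10.18, 10.39, 10.49 and 10.42 in LE/wt, a difference of -3.0 (SE 0.41, adjusted p = 1.15e-06), and the nuclear selenoprotein Selenoh differed by -1.45. Here replicate A lay below all LE/wt arrays for 15 of 16 genes, at a list median of -1.07, and replicates B to D at -1.55. With the control signal as a covariate 10 of the 16 were lower and 0 higher. In the cell cycle list of 21 genes, 10 were lower (47.6%) and 6 higher (28.6%), close to the 42.5% and 33.9% of all named genes, and 5 were lower and 1 higher with the covariate. Thymidine kinase Tk1, which serves DNA synthesis, measured 6.03, 3.92, 5.09 and 4.75 in LE/orl and 9.80, 8.96, 9.49 and 9.47 in LE/wt, a difference of -4.49 (SE 0.32, adjusted p = 3.5e-11) whose size is uncertain, since LE/orl averaged under 5. Cdkn3, a phosphatase of cyclin-dependent kinases, differed by -2.34 and Cdc20, the activator of the anaphase-promoting complex, by -1.27. The list median was 0.03 for replicate A and -0.70 for replicates B to D.

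Of 16 solute carriers, 6 were higher (37.5%, beside 33.9% of all named genes) and 2 lower (12.5%, beside 42.5%). With the covariate 4 were higher (25%, beside 24.3%) and 1 lower (6.25%, beside 23.3%). The higher shares were thus close to those of all named genes. Slc3a1, the heavy subunit of the carrier for cystine and basic amino acids that is best known from kidney, measured 8.32, 12.03, 12.18 and 12.11 in LE/orl replicates A to D, against 4.20, 3.45, 4.43 and 3.48 in LE/wt. Replicate A lay below replicates B to D and above every LE/wt array, and LE/wt lay under the minimum of 5, so the size of the difference is uncertain. It was 7.27 (SE 0.71, adjusted p = 4.3e-09) with all arrays and 8.22 without replicate A. The phosphate carrier Slc20a1 differed by 1.11 and the nucleoside carrier Slc29a1 by -0.64. Lipid genes were split, with 11 of 28 higher (39.3%) and 9 lower (32.1%), and 9 higher and 4 lower with the covariate. The fatty acid receptor Cd36 measured 9.21, 9.28, 9.34 and 8.64 in LE/orl and 7.67, 7.39, 5.91 and 6.89 in LE/wt, a difference of 2.15 (SE 0.29, adjusted p = 9.08e-07). Insig1, which restrains sterol synthesis, measured 6.75, 6.78, 6.95 and 6.94 in LE/orl and 4.62, 4.70, 4.92 and 4.41 in LE/wt, a difference of 2.19 (SE 0.33, adjusted p = 3.57e-06), its size uncertain because LE/wt lay under 5. The acyl-CoA ligase Acsl3 was higher by 1.03.

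Markers of other cells moved with strain as well, and their part in the results above was not tested. All 4 endothelial markers tested were lower with all arrays, beside 42.5% of all named genes. With the covariate 1 of the 4 was lower (25%, beside 23.3%). They include the adhesion proteins Cdh5 (-1.31) and Icam2 (-1.14), and Ramp2, given above, whose replicate A exceeded all LE/wt arrays. Cdh5 was called higher in LE/orl at GD20 (1.02). The list median was -0.22 for replicate A and -1.34 for replicates B to D. The mean level of the 4 ran between 6.51 and 7.72 over the LE/orl arrays and between 7.81 and 8.47 over the LE/wt arrays. Replicate A was the highest of LE/orl. The call of Icam2 at GD18 was lost without LE/orl replicate B (-0.97). Lyve1, a receptor of lymphatic vessels and some macrophages, measured 7.93, 9.57, 10.17 and 8.84 in LE/orl and 6.53, 7.08, 6.49 and 6.75 in LE/wt, a difference of 2.41 (SE 0.36, adjusted p = 4.34e-06). C1qc, a complement chain made by macrophages, measured 3.95, 2.32, 3.12 and 2.17 in LE/orl and 7.89, 7.44, 6.59 and 6.56 in LE/wt, a difference of -4.23 (SE 0.65, adjusted p = 5.88e-06), its size uncertain because LE/orl lay under 5. Of 2 other leukocyte genes, the actin bundler Lcp1 was higher by 0.95 (adjusted p = 0.00971), and Coro1a was not called at 0.06 (adjusted p = 0.889). The fetal haemoglobin Hbe1 measured 13.61, 11.19, 11.31 and 11.14 in LE/orl and 14.54, 13.29, 13.93 and 14.23 in LE/wt, a difference of -2.19 (adjusted p = 0.0318), and its call at GD18 was lost in 6 of the 7 fits that left out another array than LE/orl replicate A. The values of Hbe1 at GD18 in those 6 fits ran between -2.21 and -1.96. The erythroid carbonic anhydrase Car1 was not called (0.04, adjusted p = 0.984). Of 3 neuronal markers Uchl1 was lower (-3.65), while Stmn2 and the neurotrophin receptor Ngfr stood at 0.16 and 0.16 and were not called. A second probe set of Stmn2, which averaged 5.77 in LE/orl and 4.45 in LE/wt, was called higher at 1.32 (adjusted p = 0.001). Wt1, a factor of mesothelium and urogenital mesenchyme, was not called at 0.25 (adjusted p = 0.235), nor was the lipase Lpl at 0.40 (adjusted p = 0.0653). Of 3 steroid or testis genes, the lipoprotein receptor Scarb1 was lower (-1.15), and the mitochondrial ferredoxin Fdx1 (0.53) and Tesc (1.12) were higher. Tesc had group means under 5, overlapping groups and no call at GD18 without LE/orl replicate B, C or D or LE/wt replicate C (Tesc at GD18, 0.87 to 1.08).

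**Figure D4:**
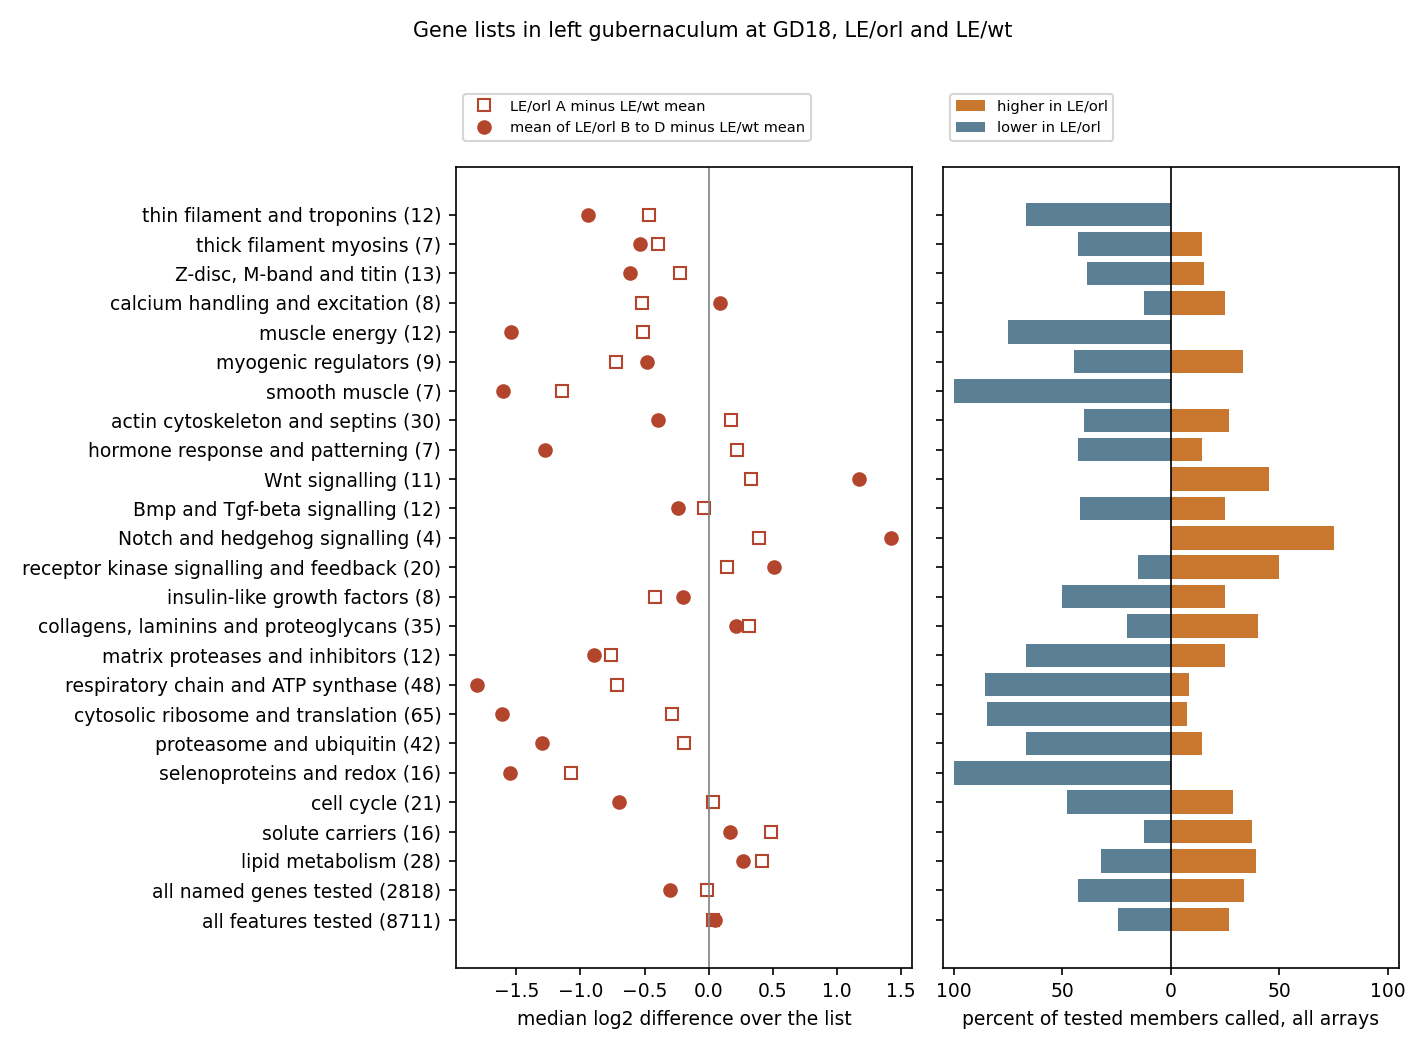
For each gene list (number of tested members in brackets), the left panel plots the median log2 difference from the LE/wt mean of LE/orl replicate A (open squares) and of the mean of LE/orl replicates B to D (filled circles), and the right panel the percentage of members called higher (orange) or lower (blue) in LE/orl with all arrays. Replicate A lies nearer to 0 than replicates B to D in the respiratory, ribosome and proteasome lists, and the smooth muscle and redox bars show every member lower.

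With the 5′ to 3′ control signal as a covariate, 90 of the 119 genes named by rule kept their direction and their side of the threshold, 22 lost the call and 7 turned. A lost call does not show that the difference was gone, since some of these differences kept most of their size. Among muscle genes that lost it, Acta1 stood at -0.86 with the covariate and -0.97 without it, and Des at -1.14 and -1.49. Fhl3 stood at -1.0 and -1.72, Actc1 at -0.59 and -0.98, Atp2a2 at 0.73 and 1.29, Id1 at -0.73 and -1.46, and Ryr1 at 0.30 and 1.09. Among muscle genes that kept it, Myl11 stood at -1.39 with the covariate (adjusted p = 0.0051), Myl3 at -1.40 (adjusted p = 0.0406), Sln at -2.03 (adjusted p = 0.00369) and Myl9 at -1.58 (adjusted p = 0.00107). Among the 20 genes with the most extreme differences, Nek1 lost the call at 0.20, Mrpl42 at -1.63, Timm13 at -1.26, LOC681219 at -1.11 and Mgst3 at -1.59, all much smaller than without the covariate. Cyba (-1.23) and Dnlz (-1.18) were likewise much smaller, while Icam2 hardly moved, at -1.10 with the covariate and -1.14 without it. The others that lost it are Frzb (0.87), Notch1 (0.52), Fdx1 (0.39), Tesc (0.43), Lrpap1 (-0.50), Mdh1 (0.07) and Vcan (-0.41). The 7 that turned are Ramp2, Jag1, Hbe1, Fkbp2, Pmf31, Rdx and Dcaf6. Nus1 stood at 3.91 (adjusted p = 6.74e-10), Sfrp2 at 2.72 (adjusted p = 2.07e-06), Bmp7 at -1.55 (adjusted p = 4.06e-05) and Igfbp5 at -3.84 (adjusted p = 1.55e-05). In 15 of the 119 genes a GD18 group mean lay under 5, the minimum used for testing, and the sizes of their differences are uncertain. They are Id3, Acta2, Ptprj, Egfr, Irs2, Tk1, Selenow, Slc3a1, Insig1, C1qc, Scarb1, Tesc, Bmyc, Cyba and Dnlz.

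For 8 genes the difference moved most when replicate A was left out. Nek1, a kinase of cilia and DNA repair, measured 6.03, 10.54, 10.73 and 10.58 in LE/orl replicates A to D and 5.61, 5.70, 5.61 and 5.57 in LE/wt. Replicates B to D lay far above LE/wt and replicate A just above it, so the difference was 3.85 (SE 0.88, adjusted p = 0.000668) with all arrays and 4.99 without replicate A. The membrane-cytoskeleton linker radixin Rdx measured 7.18, 12.13, 12.19 and 12.22 in LE/orl and 8.46, 8.85, 8.60 and 8.30 in LE/wt, and the ubiquitin ligase adaptor Dcaf6 7.35, 12.23, 12.47 and 12.22 in LE/orl and 8.87, 8.71, 8.60 and 8.38 in LE/wt. In both, replicate A lay below every LE/wt array while the other LE/orl arrays exceeded LE/wt by more than the spread of either group. They were called at 2.38 and 2.43 with all arrays and at 3.63 and 3.67 without replicate A, and the call of Rdx at GD18 was lost without any 1 of LE/orl replicates B to D (1.95 to 1.98). Pmf31 had the same order of arrays, with 3.17 and 4.56. In the other direction Fkbp2, a prolyl isomerase of the endoplasmic reticulum, measured 10.35, 5.74, 5.03 and 4.04 in LE/orl and 9.02, 9.21, 9.64 and 10.11 in LE/wt. Replicate A exceeded every LE/wt array and replicates B to D lay below them, at -3.21 with all arrays and -4.56 without replicate A. Id3, given above, Cyba, a subunit of the NADPH oxidase, and Dnlz, a mitochondrial chaperone partner, completed the 8. Cyba and Dnlz differed by -4.17 and -3.78 with all arrays and by -5.17 and -4.76 without replicate A. Which of the fetuses represents the strain better cannot be told from 4 arrays.

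For 146 named genes a further probe set passed the minimum, and in 81 of them at least 2 probe sets were called. Of these 81, 10 had probe sets called in opposite directions. The 3 probe sets of Ogn, the proteoglycan mimecan, differed by -1.71, -0.64 and 2.29. The malate dehydrogenase Mdh1 had 0.58 and -0.60, the chaperone Lrpap1 -0.69 and 1.5, LOC312030 -1.18 and 1.40, and the proteoglycan versican Vcan 0.62, 0.62 and -0.61. Derl1, which exports misfolded proteins from the endoplasmic reticulum, had 0.79, -0.02 and -1.30. The probe sets of a gene may read different transcripts or different stretches of 1 transcript, and a direction for these 6 genes holds only for the probe set with the highest mean.

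The strain difference at GD18 was set against that of the next days, in arrays that share no sample with it. All days were fitted in a single model with a shared estimate of the spread, so calls on different days are not independent. The control signal differed between the strains at GD19 and GD20 as well. At GD19 it ran between -7.23 and -6.40 in LE/orl replicates A to C and was -4.32 in replicate D. In LE/wt of GD19 it ran between -3.92 and -3.59. At GD20 it ran between -6.61 and -6.08 in LE/orl, against -3.79 to -3.54 in LE/wt. Agreement between days therefore cannot tell strain apart from this signal. Over all 2818 named genes, 920 were called higher and 1224 lower at GD19, and 563 higher and 1215 lower at GD20. Of the 955 named genes that were higher at GD18, 847 were also higher at GD19 and 0 lower, and of the 1197 that were lower, 1134 were also lower and 0 higher. A test of the change from GD18 to GD19 called 0 of 8711 features (0.0%) in limma, with 184 at an unadjusted p under 0.05 and a smallest adjusted p of 0.278. Chance alone would put about 1 in 20 features under 0.05, which is more than these 184. The absence of calls does not show that the strain difference was equal on both days. At GD20, 371 of the 955 were still higher and 116 lower, and 779 of the 1197 were still lower and 40 higher. The change between GD18 and GD20 was called for 1188 named genes (42.2%).

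In the 6 genes with the lowest p for that change, the strain difference shrank or turned by GD20. Nus1 averaged 9.89 ± 0.14 in LE/orl and 5.97 ± 0.39 in LE/wt at GD18, 9.85 ± 0.24 in LE/orl and 6.51 ± 0.54 in LE/wt at GD19, and 9.76 ± 0.27 in LE/orl and 9.73 ± 0.18 in LE/wt at GD20 (SD, n = 4 each). The LE/orl level hardly moved over the 3 days, and the LE/wt level reached it at GD20. Trim33, a ubiquitin ligase that restrains Smad4, averaged 9.96 ± 0.21 in LE/orl and 7.81 ± 0.21 in LE/wt at GD18, and 9.65 ± 0.13 in LE/orl and 9.68 ± 0.05 in LE/wt at GD20. Bmyc, a shortened relative of Myc, averaged 4.08 ± 0.03 in LE/orl, under the minimum of 5, and 7.26 ± 0.57 in LE/wt at GD18, and 4.02 ± 0.15 in LE/orl and 4.02 ± 0.14 in LE/wt at GD20. Slc35f5, Dlst, a subunit of the oxoglutarate dehydrogenase, and C10h5orf15 stood at differences of 3.20, 2.02 and 2.39 at GD18 and of 0.10, -0.52 and 0.54 at GD20, so Dlst turned and C10h5orf15 kept part of its difference. Slc3a1 kept its difference, at 6.83 at GD19 and 6.06 at GD20. So did Myl11, with -2.63 and -2.35, while Acta1 stood at -0.59 and -0.06 and Cox6a2 at -2.18 and -0.45. Of these 4, the change between GD18 and GD20 was called for Cox6a2 (adjusted p = 0.0097).

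**Figure D5:**
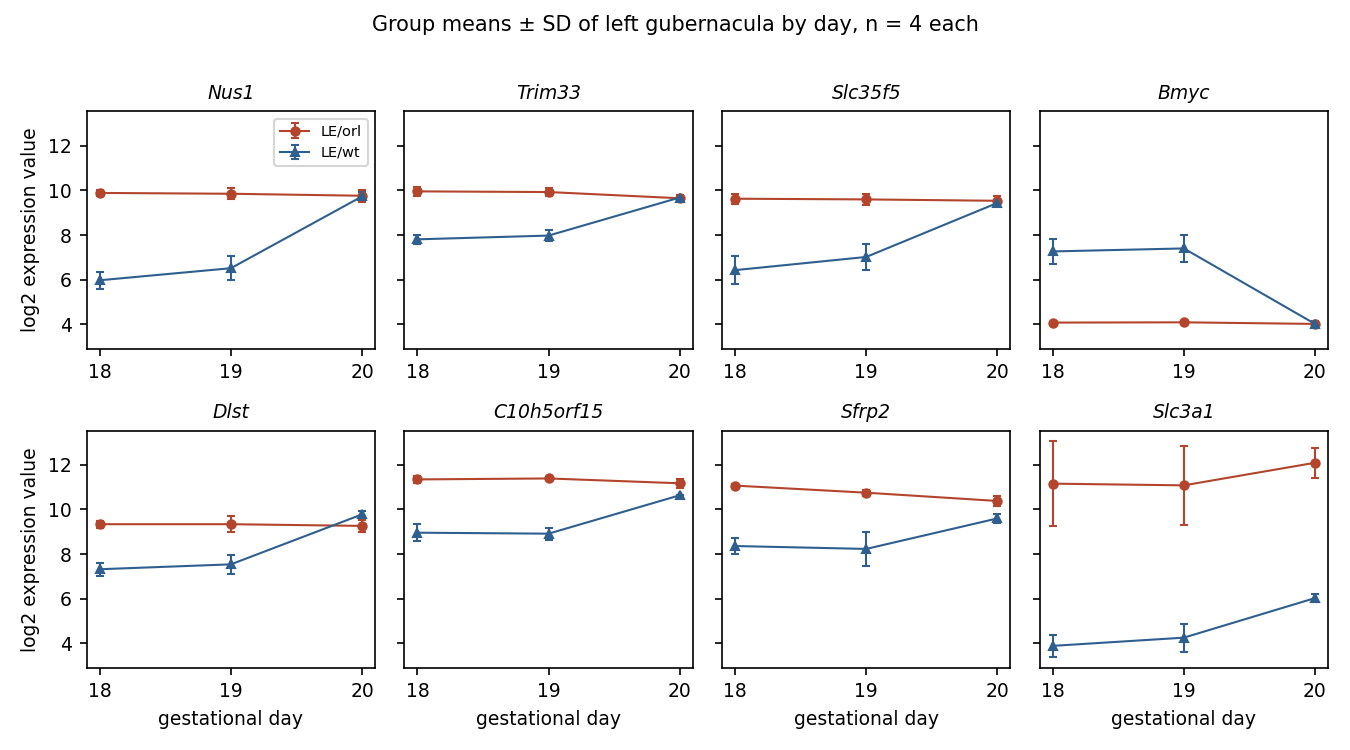
Mean log2 expression value ± SD (n = 4 per point) is plotted against gestational day for LE/orl (circles) and LE/wt (triangles) left gubernacula. In the first 6 genes, chosen for the change of the strain difference, the LE/orl line is nearly flat and the LE/wt line meets, nears or, in Dlst, passes it at GD20. In Slc3a1 the strains stay apart on all 3 days.

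Female LE/wt gubernacula of GD18, with both sides of 1 fetus pooled (n = 4), give another level for these genes. Their means were 9.76 ± 0.18 for Nus1, 9.11 ± 0.35 for Rnf111 and 11.19 ± 0.29 for Sfrp2, near those of LE/orl males. Their mean for Bmyc was 3.98 ± 0.23, for Acta2 4.16 ± 0.25 and for Ndufa11 8.41 ± 0.14, also near LE/orl. For Slc3a1 it was 4.06 ± 0.53 and for Ramp2 10.08 ± 0.31, near LE/wt males, and for Lgals1 11.85 ± 0.28 and Id3 7.96 ± 0.55, between the male groups. Sex and side differ from the males too, so no test was made. These females share the strain of the LE/wt males and had a 5′ to 3′ control signal between -4.73 and -3.93, against -4.23 to -3.73 in the LE/wt males and -6.80 to -6.70 in LE/orl replicates B to D. The sources used here do not say which groups were amplified or hybridised together, so a feature of the LE/wt male arrays of GD18 and GD19 and a feature of LE/wt males at those days cannot be told apart.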

How the data were processed

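RNA of single fetal gubernacula had been hybridised to Affymetrix arrays. The authors deposited 1 log2 value per probe set and array, for 15923 probe sets, and the submitters' processing notes name GCRMA as the tool. The sources used here do not give the set of arrays that was normalised jointly. The authors' deposited lists give group means as linear intensity, used here to check which arrays those means hold, and gene symbols. Of 3922 listed probe sets, 3005 have 1 symbol, 165 several and 752 none. Of those with 1 symbol, 2064 were current in a RefSeq table of GRCr8, 707 were updated through it and 234 were kept. A gene with several probe sets was read by the one with the highest mean.

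Features that reached 5 on the log2 scale on 3 or more of the 34 gubernaculum arrays were tested, 8711 in all, of which 2818 were named genes. One limma model (limma 3.58.1 in R 4.3.3) was fitted to the 9 gubernaculum groups, with 25 residual degrees of freedom, and p-values were adjusted over all features by Benjamini-Hochberg. The fit was repeated without LE/orl replicate A and under the settings named in the closing section, and the code was tested on simulated data. The number of arrays limits the precision. The replicate letters name fetuses and do not pair the strains.

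The rule named 119 genes. It took the 10 highest and 10 lowest differences among genes called in both fits with groups that did not overlap and means of at least 5, and from each list the members with the lowest p, 3 at most. Of genes called at GD18 and called for a change, it also took those with the lowest p, up to 4 for GD19 and 6 for GD20. No gene was called for a change to GD19, so none was named that way. The 4 that moved most each way without replicate A and up to 6 genes whose probe sets disagree were added. Genes outside the rule are said to be so where named. The comparison, its lists and its rule were chosen with earlier results of these data known. Promoter windows come from the RefSeq table of GRCr8. Testis arrays were left out because they were labelled by another protocol. Values of some genes are not reported here.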

Additional observations from a re-analysis of the deposited data

Results flagged for a closer look

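A single array lay far from the other 3 of its group in 33 cases among the genes named, where chance sets an array apart in about 1 in 20 groups. LE/orl replicate A was that array in 22 of the 33. Among these, Nek1, Id3, Pmf31, Rdx and Dcaf6 met the naming rule by moving most without replicate A, so this count in part follows from the choice of genes. Over all 2818 named genes it was set apart in 449 (15.93%), against 0.35% to 2.63% for the other 7 arrays.

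LE/orl replicate A lay below the other LE/orl arrays for Nek1 (6.03), Eef2k (6.45), Kctd3 (8.17), Slc3a1 (8.32), Pmf31 (5.08), Rdx (7.18), Dcaf6 (7.35) and Mdh1 (12.04). It lay above them for Ppdpf (8.53), Lgals1 (12.19), Mrpl42 (8.16), Timm13 (9.13), Mif (8.5), Id3 (8.07), Id1 (9.51), Cfl1 (7.77) and Rac1 (10.2). The same held for Ramp2 (10.01), Ndufa11 (8.6), Selenow (6.37), Hbe1 (13.61) and C10h5orf15 (11.56). For Slc3a1 the other 3 LE/orl arrays lay between 12.03 and 12.17, and for Id3 between 3.39 and 3.96.

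LE/wt replicate A was set apart for Rnf111 (4.5), Slc35f5 (7.34), Mgst3 (11.35), Ptprj (5.33), Irs2 (3.64), Col1a2 (13.0) and Cdkn3 (10.17). LE/wt replicate B was set apart for Acta1 (14.14) and Myoz2 (10.73), and LE/wt replicate C for Polr2f (9.78) and Bmp7 (8.51). In each of these 11 the LE/orl values did not overlap LE/wt. The rule required that of Rnf111, Slc35f5, Mgst3 and Polr2f, and the others were taken for a low p at GD18. Among all named genes the groups did not overlap in 27.0% on the higher side and 32.9% on the lower side.

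The strain difference at GD18 minus that at GD20 passed the limma test for 6 genes chosen by that test. It was 3.88 for Nus1, 3.1 for Slc35f5, 2.18 for Trim33, -3.19 for Bmyc, 2.53 for Dlst and 1.85 for C10h5orf15.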

How the results depend on the processing

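For the strain difference at GD18, 2635 features were called with the 5′ to 3′ control signal as a covariate, 1500 higher and 1135 lower. Of the 4428 calls, 2083 were made there in the same direction and 4 in the opposite one. Calls of at least 2-fold numbered 2323, with 1149 higher and 1174 lower. With that covariate the difference turned to 0.03 for Ramp2 at GD18, -0.12 for Jag1 at GD18, 0.44 for Hbe1 at GD18, 0.56 for Fkbp2 at GD18, -0.81 for Pmf31 at GD18, -1.36 for Rdx at GD18 and -0.69 for Dcaf6 at GD18. The cause was not tested. With the mean of a gene's probe sets it turned to 0.41 for Lrpap1 at GD18, 0.11 for LOC312030 at GD18, -0.009 for Mdh1 at GD18 and 0.21 for Vcan at GD18, since those probe sets had opposite signs. With no minimum signal the change between GD18 and GD19 was called for 2 features, and the cause was not tested. Leaving out 1 array at a time gave 3816 to 4799 calls. The 8 arrays alone gave 3980, and with the replicate letter as a block 3406. Same-letter arrays deviated together at correlations of 0.01, 0.152, -0.234 and -0.161, so the letter does not pair them, and no pairing was used. The 7 arrays without LE/orl replicate A, a setting chosen after seeing the data, gave 5267. Array weights gave 5689, quantile normalization 4438 and a minimum of 7 gave 3833. No direction of the 119 genes turned under the other settings, among those each of them tested.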
